A study of Mus musculus with 8 samples.

Results

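A set of 10 clustered protease inhibitor genes on mouse chromosome 12 was examined in whole-liver RNA-Seq libraries: Serpina1a, Serpina1b, Serpina1c, Serpina1d, Serpina1e, Serpina3c, Serpina3k, Serpina3m, Serpina3n and Serpina12. They were chosen by symbol, with earlier results of these data known, and all 10 were found among the 46517 genes counted. The livers came from 4 MøFoxO1-KO mice (labelled KO26 to KO29) and 4 WT littermates (WT22 to WT25). All were male C57BL/6 mice, 31 weeks old, that had eaten the NASH-inducing diet for 25 weeks and were fasted for 16 h. MøFoxO1-KO mice were FoxO1 loxP/loxP-Lyz2-Cre, and WT littermates were FoxO1 loxP/loxP without Cre, so both groups carried the floxed alleles. The lysozyme 2 promoter drives Cre in macrophages, granulocytes and other myeloid cells, so hepatocytes, which make these inhibitors, were not the targeted cells. The comparison asked how the hepatic levels of these genes differed between mice with and without myeloid FoxO1.

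Serpins are suicide inhibitors. A flexible reactive loop near the end of the protein is offered to a protease as bait, and when the protease cuts it the serpin folds up and traps the enzyme. Hepatocytes secrete clade A serpins into plasma in large amounts. Mice carry several copies of the gene for alpha-1 antitrypsin, the main plasma inhibitor of neutrophil elastase, and a separate group of Serpina3 genes related to alpha-1 antichymotrypsin. Serpina12 encodes vaspin, a serpin first described in fat tissue that inhibits kallikrein 7.

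The stretch that codes for the reactive loop is shown for the Serpina1 copies because it is where the encoded inhibitors differ in their bait, and because it shows how alike the copies are. The sequences are from the GENCODE M21 transcripts on GRCm38, are read 5′ to 3′ on the coding strand and run over codons 363 to 384. Capitals mark the 15 of 66 positions at which the 5 copies are not all the same.
Serpina1a (chr12:103853765-103853830, minus strand): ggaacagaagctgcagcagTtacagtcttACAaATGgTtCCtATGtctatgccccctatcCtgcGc
Serpina1b (chr12:103728332-103728397, minus strand): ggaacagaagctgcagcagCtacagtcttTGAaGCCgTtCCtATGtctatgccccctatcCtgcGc
Serpina1c (chr12:103895102-103895167, minus strand): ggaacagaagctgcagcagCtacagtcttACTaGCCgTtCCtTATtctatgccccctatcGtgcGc
Serpina1d (chr12:103763770-103763835, minus strand): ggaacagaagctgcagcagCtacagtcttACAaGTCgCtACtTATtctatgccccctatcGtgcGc
Serpina1e (chr12:103947108-103947173, minus strand): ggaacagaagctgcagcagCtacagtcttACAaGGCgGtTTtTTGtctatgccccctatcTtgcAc
The first codons of the stretch were the same in all 5 copies, and the differences lay in the later ones.

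The same stretch is given for the 3 Serpina3 genes with substantial counts, since Serpina3k was apart between the genotypes and the others overlapped. Here capitals mark the bases past the first 8 codons of the stretch.
Serpina3k (chr12:104345269-104345337, plus strand): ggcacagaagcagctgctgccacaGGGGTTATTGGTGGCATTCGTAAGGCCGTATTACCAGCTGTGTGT
Serpina3m (chr12:104393769-104393843, plus strand): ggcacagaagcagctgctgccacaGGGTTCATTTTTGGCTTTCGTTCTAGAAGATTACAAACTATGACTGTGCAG
Serpina3n (chr12:104413448-104413522, plus strand): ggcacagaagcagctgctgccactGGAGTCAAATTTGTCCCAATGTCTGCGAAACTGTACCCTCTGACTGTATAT

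Over the whole coding sequence of 1239 bases, the 10 pairs of Serpina1 copies were between 96.3 and 98.5% identical. The closest pair was Serpina1a and Serpina1c, with 19 differing bases. The 4 Serpina3 members were between 82.7 and 91.1% identical, with Serpina3k and Serpina3m the closest, and Serpina12 was at most 57.2% identical to any other member. Near-identical copies limit the assignment of reads. Of all 100-base stretches of its transcript, Serpina1c had 30.7% and Serpina1a 39% that occurred in the transcripts of no other gene. The shares were 70.7% for Serpina1d, 79.4% for Serpina1b and 85.2% for Serpina1e, and at least 93.9% for each Serpina3 member and for Serpina12. How reads that match several genes were counted is not given in the sources used here, so the split of counts among Serpina1a, Serpina1b, Serpina1c and Serpina1d is uncertain, and the sum of the copies is given beside them. Exons of Serpina1c also overlapped those of the antisense gene B430119L08Rik over 429 of 1361 bases, and Serpina3k and Serpina3m shared 60 bases of exon. B430119L08Rik had between 58 and 206 counts per mouse, against at least 12881 for Serpina1c. Since the use of the strand is not given, these counts do not show how many Serpina1c reads the overlap affected.

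The Serpina1 copies, Serpina3k and Serpina12 were higher in MøFoxO1-KO livers, whereas Serpina3m and Serpina3n overlapped between the groups. All 9 members that could be tested had a log2 fold change above 0, from 0.21 for Serpina3n to 3.53 for Serpina1e, with a median of 0.90. Among all 13278 genes tested the median was -0.01, and 48.3% were above 0. In 7 members every MøFoxO1-KO mouse lay above every WT mouse, a pattern found in 5.00% of the genes tested, and in 0 members the order was the opposite one, which 4.71% of genes showed. Because the members were chosen with earlier results known, the shares over all genes are a description and not a test of the set. At an adjusted P under 0.05 in edgeR's quasi-likelihood test 1 member, Serpina1c, was called, against 0.294% of all genes in either direction and 0.121% in this one. At the study's limits, an adjusted P under 0.05 together with an absolute log2 fold change over 1.5, edgeR called 0 members, against 0.188% of all genes. At an unadjusted P under 0.05 it gave 7 members, against 8.65% of genes that were higher. DESeq2 called the same 7 at an adjusted P under 0.05, where 2.25% of its tested genes were called higher, and 3 of them, Serpina1e, Serpina3k and Serpina12, also passed the fold limit, against 1.22% of its tested genes.

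**Figure D1:**
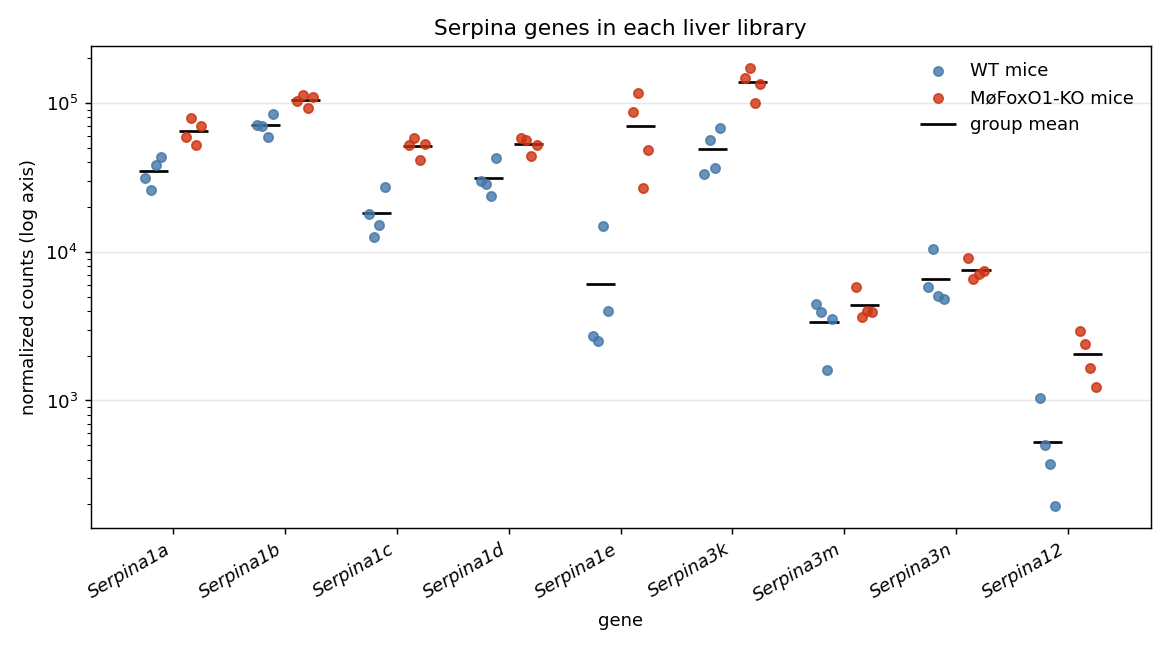
Normalized counts (log axis) of the 9 tested members in each of the 4 WT mice (blue) and 4 MøFoxO1-KO mice (red), with a line at each group mean. The groups are apart in the Serpina1 copies, Serpina3k and Serpina12, and overlap in Serpina3m and Serpina3n.

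Serpina1b (ENSMUSG00000071178, chr12:103728156-103830373, GRCm38, minus strand) had the most counts of the alpha-1 antitrypsin copies in WT liver. Its normalized counts in WT22 to WT25 were 71193, 70177, 58852 and 85036, and those in KO26 to KO29 were 102550, 112563, 92697 and 109346. All 4 MøFoxO1-KO mice were above the highest WT mouse, the closest by 1.09-fold. Its log2 fold change was 0.55 ± 0.16 (SE, n = 4 per group), with an adjusted P of 0.148 in edgeR. Serpina1b was the member with the smallest spread, with a coefficient of variation of 15% in WT and 8.42% in MøFoxO1-KO mice.

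Serpina1a (ENSMUSG00000066366, chr12:103853589-103863562, GRCm38, minus strand) stood at 31591, 26044, 38581 and 43713 normalized counts in WT22 to WT25, and at 58797, 79400, 51982 and 70509 in KO26 to KO29. The groups did not overlap. Its log2 fold change was 0.90 ± 0.20 (SE), with an adjusted P of 0.102 in edgeR. Serpina1d (ENSMUSG00000071177, chr12:103763594-103773592, GRCm38, minus strand), whose gene lies inside the annotated span of Serpina1b, had 29802, 28714, 23794 and 42681 normalized counts in the WT mice and 58626, 56767, 44072 and 52339 in the MøFoxO1-KO mice. The groups again did not overlap, but the margin was narrow, since KO28 was 1.03-fold above WT25. For Serpina1d the log2 fold change was 0.76 ± 0.19 (SE), with an adjusted P of 0.125 in edgeR.

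Serpina1c (ENSMUSG00000079015, chr12:103894926-103904887, GRCm38, minus strand) was the only member called at an adjusted P under 0.05. Normalized counts were 17833, 12639, 15252 and 27350 in WT22 to WT25, and 52470, 58392, 41399 and 52694 in KO26 to KO29. The lowest MøFoxO1-KO mouse was 1.51-fold above the highest WT mouse. The log2 fold change was 1.49 ± 0.24 (SE), with an adjusted P of 0.037 in edgeR, so it missed the fold limit by a narrow margin. In its rank by P it was gene 31 of 13278. Serpina1c also had the smallest share of 100-base stretches found in no other gene, 30.7%. Its call may therefore depend on the uncertain split of reads among the copies, whose sum had an adjusted P of 0.0647 in edgeR. The call of Serpina1c was lost without any of 6 of the 8 libraries. Its adjusted P was 0.123, 0.062 and 0.0815 without WT22, WT23 or WT24, and 0.115, 0.135 and 0.0788 without KO26, KO27 or KO29. It was 0.0472 without WT25 and 0.0306 without KO28.

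Serpina1e (ENSMUSG00000072849, chr12:103946931-103958975, GRCm38, minus strand) differed the most of all members. In WT22, WT23 and WT25 its normalized counts were 2697, 2528 and 3995, but WT24 had 14961. In KO26 to KO29 they were 87444, 116710, 27030 and 48101. Even KO28, the lowest of the MøFoxO1-KO mice, was 1.81-fold above WT24, and the group means of 69821 and 6045 differed 11.6-fold. Serpina1e had a log2 fold change of 3.53 ± 0.68 (SE), number 15 of the 13278 genes when ordered by increase, with an adjusted P of 0.0758 in edgeR and 0.00165 in DESeq2. Both groups were widely spread, with coefficients of variation of 98.9% in WT and 57.4% in MøFoxO1-KO mice. Without WT24 the log2 fold change was 4.50 ± 0.52 (SE) with an adjusted P of 0.0158, and without KO28 it was 3.80 ± 0.66 with an adjusted P of 0.0385.

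The promoters of the copies with the smallest and the largest difference among the Serpina1 genes are shown because they are nearly the same. RefSeq promoter windows, from 250 bases before to 50 after the gene's start on GRCm38.p6, were found for 8 of the 10 members, not for Serpina3k and Serpina3m. The 150 bases before each start follow, with GTTAAT in capitals, the half-site of hepatocyte nuclear factor 1.
Serpina1b (chr12:103738190-103738339, minus strand): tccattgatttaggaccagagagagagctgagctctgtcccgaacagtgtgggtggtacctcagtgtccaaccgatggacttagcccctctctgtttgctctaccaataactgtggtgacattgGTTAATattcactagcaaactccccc
Serpina1e (chr12:103956898-103957047, minus strand): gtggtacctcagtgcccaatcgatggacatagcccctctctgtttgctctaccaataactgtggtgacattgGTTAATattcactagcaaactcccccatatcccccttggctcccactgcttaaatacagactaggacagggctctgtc
Aligned over 250 bases, these windows had 4 mismatches and 2 gap bases (97.6% identity), and their annotated starts were offset from each other. GTTAAT was found once in each of the 5 Serpina1 windows, starting 26 bases before the start of Serpina1b and 78 bases before that of Serpina1e. It was also found once in the window of Serpina3c, 239 bases before the start, and not in those of Serpina3n and Serpina12. On either strand GTTAAT was present in 7.1% of 32851 windows. The Serpina1 windows were between 91.4 and 97.6% identical to each other where aligned, so their matches are not separate findings. The STAT motif TTCNNNGAA was found in none of the 8 member windows, against 8.3% of all windows. The C/EBP motif TTGCNNAA was found in the windows of Serpina1a, Serpina1b, Serpina1d, Serpina1e and Serpina12, against 10.8% of all.

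Together, the 5 alpha-1 antitrypsin copies had 153115, 140102, 151439 and 202776 normalized counts in WT22 to WT25, and 359887, 423832, 257180 and 332989 in KO26 to KO29. The lowest sum among MøFoxO1-KO mice was above the highest among WT mice. The means were 161858 ± 27884 and 343472 ± 69001 (SD, n = 4 each), a ratio of 2.12. This sum does not depend on how reads were split among the copies, although it would miss reads left out for matching several of them. Such a loss would be uneven, since 85.2% of the 100-base stretches of Serpina1e but 30.7% of those of Serpina1c occurred in no other gene. The ratio could then depend on the makeup of the copies as well. Tested as a single gene in place of the 5, it had a log2 fold change of 1.09 ± 0.20 (SE) with an adjusted P of 0.0647 in edgeR. Without Serpina1e the other copies summed to 155813 ± 29336 in WT and 273651 ± 32354 in MøFoxO1-KO mice, a ratio of 1.76.

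The makeup of the alpha-1 antitrypsin counts also differed between the groups. Serpina1e held 1.76, 1.8, 9.88 and 1.97% of the counts of the 5 copies in WT22 to WT25, and 24.3, 27.5, 10.5 and 14.4% in KO26 to KO29. WT24 and KO28 were close to each other in this share. The share of Serpina1b was 44.3 ± 4.95% in WT and 31 ± 4.27% in MøFoxO1-KO mice (SD), and that of Serpina1c was 11.1 ± 1.95% and 15.1 ± 1.09%, with no overlap between the groups in either. The shares of Serpina1a and Serpina1d overlapped, with means of 21.6 and 19.2% in WT and 19.1 and 15.6% in MøFoxO1-KO mice. As a ratio of counts, Serpina1e to Serpina1b was between 0.036 and 0.254 in WT mice and between 0.292 and 1.04 in MøFoxO1-KO mice. These shares add up to a fixed total, so they are not independent of each other, and they carry no test.

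**Figure D2:**
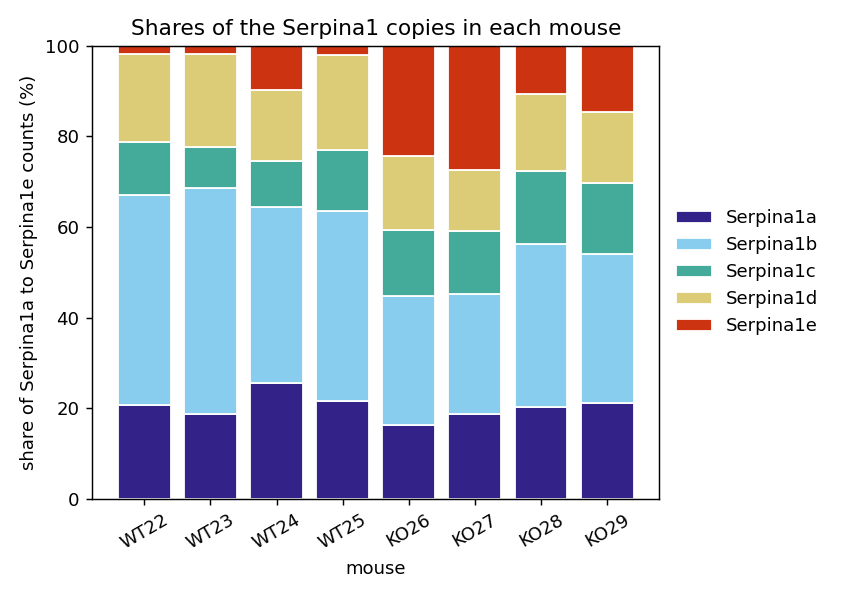
Percent of the summed Serpina1a to Serpina1e counts held by each copy (stacked bars) in each of the 8 mice. Serpina1e takes 1.76 to 9.88% in the WT mice and 10.5 to 27.5% in the MøFoxO1-KO mice.

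Among the tested Serpina3 genes, Serpina3k had the largest difference. Serpina3k (ENSMUSG00000058207, chr12:104338486-104346144, GRCm38, plus strand) encodes a plasma serpin known as kallikrein-binding protein. Its normalized counts were 33418, 56747, 36756 and 68097 in WT22 to WT25, and 147570, 172645, 99863 and 134329 in KO26 to KO29. Every MøFoxO1-KO mouse was at least 1.47-fold above the highest WT mouse. The log2 fold change was 1.51 ± 0.26 (SE), past the fold limit, with an adjusted P of 0.0529 in edgeR and 1.3e-06 in DESeq2. In edgeR it passed the limit without KO28 (adjusted P 0.0309) and in none of the other fits that left out 1 mouse. Serpina3k alone held 0.214 to 0.428% of all counts in WT mice and 0.613 to 0.95% in MøFoxO1-KO mice.

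Serpina3n (ENSMUSG00000021091, chr12:104406729-104414329, GRCm38, plus strand), an acute-phase inhibitor of granzyme B and leukocyte elastase, overlapped between the groups. Its normalized counts were 5791, 10521, 5021 and 4832 in WT22 to WT25, and 9117, 6580, 7116 and 7402 in KO26 to KO29, and WT23 was above all MøFoxO1-KO mice. The log2 fold change was 0.21 ± 0.25 (SE), with an adjusted P of 0.718. Leaving out WT23 gave 0.53 with an adjusted P of 0.203, and the groups then did not overlap. Serpina3m (ENSMUSG00000079012, chr12:104338486-104394257, GRCm38, plus strand) had 4443, 3940, 1593 and 3518 normalized counts in the WT mice and 5816, 3636, 4016 and 3953 in the MøFoxO1-KO mice. Only WT24 was well below the others, and the groups overlapped. In edgeR Serpina3m had a log2 fold change of 0.37 ± 0.28 (SE), with an adjusted P of 0.559. Leaving out WT24 lowered it to 0.13. As a ratio of counts, Serpina3k to Serpina3m, its closest relative here, was 16.1 ± 6.72 in WT and 32.9 ± 10.6 in MøFoxO1-KO mice (SD), without overlap.

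Serpina3c (ENSMUSG00000066361, chr12:104146382-104153870, GRCm38, minus strand) was close to undetected and had too few counts to be tested. It had 0, 1, 1 and 0 counts in WT22 to WT25, and 4, 6, 0 and 5 in KO26 to KO29. The groups overlapped, since KO28 had none. The summed 15 and 2 counts, scaled by library size, gave a ratio of 8.18 with an exact 95% interval from 1.9 to 73.7, which covers counting error only and not the spread between mice. The 4 Serpina3 members summed to 58670 ± 17634 normalized counts in WT and 150515 ± 30417 in MøFoxO1-KO mice (SD), a ratio of 2.57.

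Serpina12 (ENSMUSG00000041567, chr12:104028769-104044443, GRCm38, minus strand), the vaspin gene, was expressed at a far lower level than the main plasma serpins. Its normalized counts were 1042, 501, 372 and 196 in WT22 to WT25, and 2942, 2394, 1644 and 1230 in KO26 to KO29. The groups did not overlap, although KO29 was only 1.18-fold above WT22. The means of 528 and 2053 differed 3.89-fold. The log2 fold change was 1.96 ± 0.46 (SE), past the fold limit, with an adjusted P of 0.112 in edgeR and 0.0222 in DESeq2. The WT mice were spread 5.33-fold from lowest to highest. Serpina12 has no near-identical copy, and all of its 100-base stretches (100%) occurred in its own transcripts alone.

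For single members, the exact two-sided permutation test of the normalized counts gave P = 0.0286 for each of the 7 that did not overlap, the smallest value that 4 against 4 mice allow. Any gene without overlap gets this value, so it only restates that pattern. Of all genes tested, 5.00% were higher and 4.71% lower without overlap. The same exact test gave P = 0.314 for Serpina3m, 0.514 for Serpina3n and 0.143 for Serpina3c. These values are not adjusted for the 10 members.

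Counts per exon length put the genes on a common scale, but do not correct for reads that match several genes. If such reads were left out, the counts of Serpina1c and Serpina1a would be lowered the most. Only 30.7 and 39% of their 100-base stretches occurred in no other gene, against 79.4% for Serpina1b and 85.2% for Serpina1e. The order among the Serpina1 copies is therefore uncertain. In WT liver the order of normalized counts per kb of exon was Serpina1b (29530 ± 4440, SD, n = 4), Serpina3k (23702 ± 8024), Serpina1d (22416 ± 5780), Serpina1a (19095 ± 4235), Serpina1c (13423 ± 4714), Serpina1e (3738 ± 3698), Serpina3n (3169 ± 1301), Serpina3m (1962 ± 725) and Serpina12 (143 ± 98.9), with Serpina3c last at 0.215. Neighbours in this order had overlapping ranges over the WT mice, except that Serpina1c was above Serpina1e (9287 to 20096 against 1563 to 9252), Serpina3m above Serpina12 and Serpina12 above Serpina3c. In MøFoxO1-KO liver Serpina3k came first (67381 ± 14741 per kb), followed by Serpina1b (43184 ± 3637) and Serpina1e (43179 ± 24768). Serpina1e thus moved from the sixth place to the third, but its range in MøFoxO1-KO mice, 16716 to 72177 per kb, spanned those of Serpina1a, Serpina1b, Serpina1c and Serpina1d. The 4 lowest places, Serpina3n, Serpina3m, Serpina12 and Serpina3c, were the same in both groups.

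**Figure D3:**
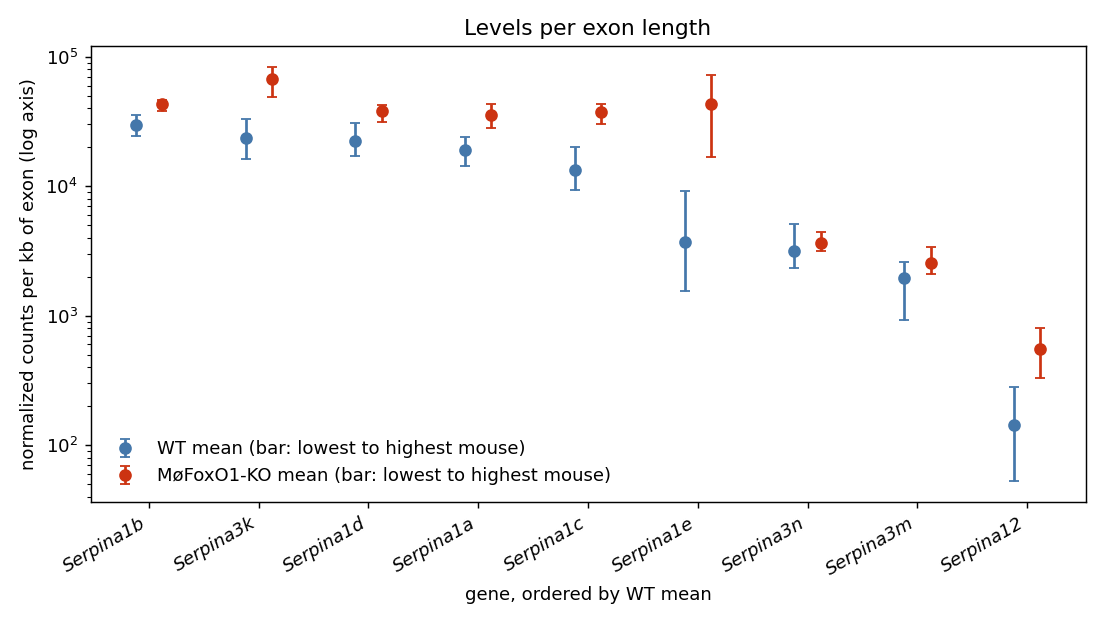
Normalized counts per kb of exon (log axis) of the 9 tested members, ordered by the WT mean, with points for the group means and bars from the lowest to the highest of 4 mice. Serpina3k is the highest in MøFoxO1-KO liver at 67381 per kb, and Serpina1e shows the largest distance between the group means.

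The members shared much of their ordering over the mice, but some genes outside the set showed it too. Among the 7 members whose groups did not overlap, KO28 was the lowest MøFoxO1-KO mouse in 6 and KO27 the highest in 5. WT25 was the highest WT mouse in 5 of them. The Serpina1 copies among them can share reads, so they are not separate observations. The hepatocyte markers Alb, Apoa1 and Ttr also had KO28 lowest and KO27 highest (Alb, 769559 and 1126617 normalized counts). In Cps1 KO28 was the lowest and KO29 the highest, and in Cyp2e1 KO29 was the lowest and KO26 the highest. Among MøFoxO1-KO mice the scaling factor was smallest in KO27 (0.902) and largest in KO28 (1.01). KO28 was also the MøFoxO1-KO mouse with the smallest share of counts in the 10 members, 2.27%, against 3.05, 3.35 and 2.74% in KO26, KO27 and KO29. In WT22 to WT25 that share was 1.27, 1.28, 1.37 and 1.75%. These shares were taken from the deposited counts without any scaling factor, and the groups did not overlap.

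Of 17 other clade A serpin genes, most of which lie in the same region, 8 were tested, 6 of them in the region. Of the 8 tested, 7 had a log2 fold change above 0, against 48.3% of all genes tested. In edgeR 1 was called at an adjusted P under 0.05, against 0.294% of all genes in either direction and 0.121% higher. That gene was Serpina11, which lies between Serpina1e and Serpina12 (chr12:103980243-103989957, GRCm38). It had 851, 535, 826 and 941 normalized counts in WT22 to WT25 and 1688, 2314, 1548 and 2167 in KO26 to KO29, with no overlap. Its log2 fold change was 1.29 ± 0.20 (SE), with an adjusted P of 0.0337 in edgeR that ranged from 0.0211 to 0.133 when single mice were left out. The pseudogene Serpina4-ps1 did not overlap either (1.73 ± 0.40, adjusted P = 0.112). Serpina10, the protein Z-dependent protease inhibitor, had 0.37 ± 0.14 (adjusted P = 0.228), and Serpina6, which encodes corticosteroid-binding globulin, 0.06 ± 0.29 (adjusted P = 0.935). Serpina7, the thyroxine-binding globulin gene, which lies elsewhere in the genome, was the one below 0, at -0.45 ± 0.38 (adjusted P = 0.593), and Agt, which encodes angiotensinogen and also lies elsewhere, had 0.23 ± 0.18 (adjusted P = 0.568).

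Placed in chromosome order, all 15 tested clade A genes of the region had a log2 fold change above 0. The 2 other tested genes inside the region were above 0 as well, with overlapping groups. Gm8893, inside the annotated span of Serpina1b, had 0.93 ± 0.38 (SE, adjusted P = 0.256 in edgeR). B430119L08Rik, which overlaps exons of Serpina1c, had 0.91 ± 0.28 (adjusted P = 0.179). Whether reads of the serpin genes entered these 2 counts was not tested. The 5 tested genes on either side, a choice made after values were seen, were mixed. Of these 10 flanking genes 5 were above and 5 below 0, from -1.63 for Ifi27l2b to 0.63 for Ifi27, and none was called at an adjusted P under 0.05 in edgeR, with 3 at an unadjusted P under 0.05, against 16.7% of all genes in either direction. None of the 10 was higher without overlap, against 5.00% of all genes tested. Ddx24 and Ifi27l2b, 2 of the 10, were lower without overlap, against 4.71% of all genes. With 10 genes, such counts are too small to be set against these shares. Within the region the difference was not even: it was small at Serpina10 and Serpina6 on one end and at Serpina3m and Serpina3n on the other, and larger between them.

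**Figure D4:**
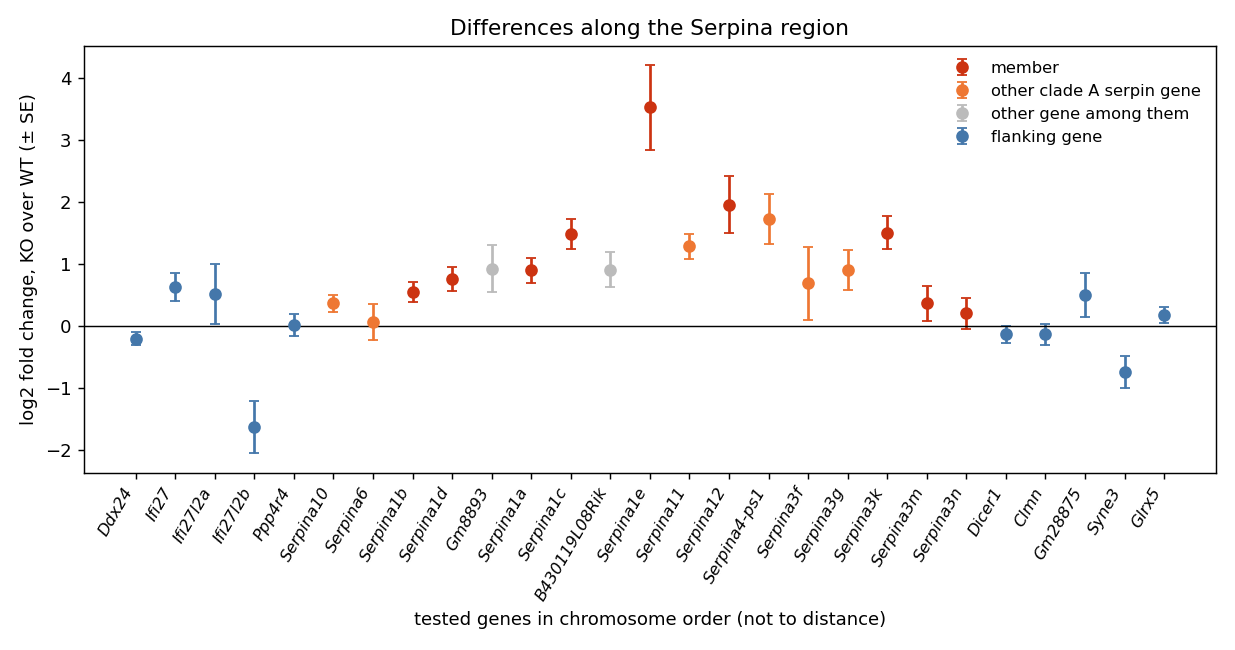
Log2 fold change (MøFoxO1-KO over WT, ± SE) of the tested genes of the region in chromosome order, not drawn to distance, with members in red, other clade A genes in orange, other genes among them in grey and 5 flanking genes on each side in blue. Members reach 3.53 at Serpina1e and end at 0.21 at Serpina3n, and the flanking genes lie between -1.63 and 0.63.

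For the 3 members with the largest differences, the most alike genes outside the clade were found by the root mean square distance of centred log2 CPM (counts scaled for library size) over the 8 mice. For Serpina1e these were Mup16 (distance 0.69), Mup21 (0.79) and Mup14 (0.84), which code for major urinary proteins, a family that itself has near-identical copies. For comparison, the nearest other member to Serpina1e, Serpina12, was at 1.43. Mup21 had a log2 fold change of 2.64 with an adjusted P of 0.0654 in edgeR. For Serpina12 they were Gm4070 (0.47), Cyp2u1 (0.48) and Igf2 (0.57), of which only Cyp2u1 had substantial counts, 416 in WT and 1202 in MøFoxO1-KO mice on average. For Serpina3k they were Wfdc21 (0.24), Carmil1 (0.29) and Cyp2d11 (0.29). Wfdc21 averaged 3000 normalized counts in WT and 7440 in MøFoxO1-KO mice. This likeness is a description of 8 mice and includes the difference between the groups.

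The other genes of the pathway were followed in lists of proteases that serpins inhibit, factors that act on liver gene expression, acute-phase genes and genes for secretion and clearance. Of 14 proteases, 8 were tested, of which 6 were above 0 and none was called at an adjusted P under 0.05 in edgeR (4 at an unadjusted P under 0.05, against 16.7% of all genes tested in either direction, and 2 by DESeq2). Those with the smallest P were F10, coagulation factor X, at 0.61 ± 0.13 (SE, adjusted P = 0.0993), and F11, coagulation factor XI, at 0.90 ± 0.24 (adjusted P = 0.131). The median log2 fold change of the tested proteases was 0.25. The 2 proteases called by DESeq2 were higher, and DESeq2 called 2.25% of all its tested genes higher.

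Of 21 genes for transcription factors and interleukin 6 signalling, all were tested, 7 were above and 14 below 0, with a median of -0.14. None was called in edgeR, with 2 at an unadjusted P under 0.05, a share below the 16.7% of all genes. DESeq2 called 1, Stat5a, which was lower, and the share of all genes that it called lower is not given here. Of the 21 genes, 2 were lower without overlap, Stat5a and Stat5b, against 4.71% of all genes tested. Stat5b had a log2 fold change of -0.31 ± 0.14 (SE, adjusted P = 0.315 in edgeR). Stat5a, a transducer of growth hormone and cytokine signals, had 279, 391, 277 and 296 normalized counts in WT22 to WT25 and 199, 160, 203 and 155 in KO26 to KO29, with no overlap. Its log2 fold change was -0.79 ± 0.16 (SE), with an adjusted P of 0.0851. Foxa3, a hepatocyte transcription factor, had 0.37 ± 0.16 (adjusted P = 0.282).

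The acute-phase list, which holds secreted liver proteins of inflammation, had 21 of 22 genes tested, 15 above and 6 below 0, with a median of 0.21. None was called in edgeR, with 7 higher and 1 lower at an unadjusted P under 0.05, against 8.65% of all genes higher and 16.7% in either direction. DESeq2 called 1 higher, against 2.25% of its tested genes. Itih3, an inter-alpha-trypsin inhibitor heavy chain, had a log2 fold change of 0.81 ± 0.21 (SE, adjusted P = 0.129), and Fgg, the fibrinogen gamma chain, 0.57 ± 0.19 (adjusted P = 0.202). Of the 18 genes for the secretory path and for the clearance of misfolded alpha-1 antitrypsin, 13 were above and 5 below 0, with a median of 0.11. None was called in edgeR, and 3 had an unadjusted P under 0.05, the same share as the 16.7% of all genes. DESeq2 called 1 higher, against 2.25% of its tested genes. Calr, a chaperone of glycoproteins in the endoplasmic reticulum, had 0.53 ± 0.14 (adjusted P = 0.131), and Derl2, which serves the export of misfolded proteins for degradation, 0.37 ± 0.12 (adjusted P = 0.188). Serpins of other clades, 13 of 14 tested, had 8 above and 5 below 0, none called in edgeR and 3 at an unadjusted P under 0.05 (all genes, 16.7%). DESeq2 called 2 of them, 1 higher (all its tested genes, 2.25%) and 1 lower (share over all its tested genes not given here). The smallest P values were those of Serpinb1a, an intracellular inhibitor of neutrophil proteases, at -1.54 ± 0.37 (adjusted P = 0.119), and Serpine2, protease nexin 1, at 1.68 ± 0.49 (adjusted P = 0.155).

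Markers of liver cell types were read beside these results. In bulk tissue a change in the number of cells of a type and a change in RNA per cell cannot be told apart. The 5 hepatocyte markers summed to between 1128841 and 1545383 normalized counts in WT mice and between 1335912 and 1926655 in MøFoxO1-KO mice. Alb, the albumin gene, had a log2 fold change of 0.19 ± 0.21 (SE, adjusted P = 0.687), while Apoa1 had 1.07 ± 0.21 (adjusted P = 0.0765) with no overlap. All 6 macrophage markers were above 0, against 48.3% of all genes tested, and 3 had an unadjusted P under 0.05, against 8.65% higher. None was called at an adjusted P under 0.05 in edgeR, and the groups overlapped in all 6. Without KO29 each had its smallest log2 fold change of the fits that left out 1 mouse, from 0.03 for Cd68 to 0.72 for Adgre1. The sum of the macrophage markers ranged from 2511 to 3814 in WT and from 2929 to 10937 in MøFoxO1-KO mice. The 6 neutrophil markers summed to between 14.3 and 72.8 in all mice, with overlap, and 2 could be tested. The 6 stellate cell markers summed to 3453 to 6211 in WT and 4472 to 7077 in MøFoxO1-KO mice, and the 4 endothelial markers to 1363 to 2873 and 2137 to 3497. Most of the stellate sum was Dcn. Of the 6 stellate markers, 4 had a log2 fold change above 0 and 2 below, with a median of 0.11. Col1a1, a collagen gene of that list, was lower in every MøFoxO1-KO mouse than in any WT mouse, against 4.71% of all genes tested. Its log2 fold change was -1.28 ± 0.42 (SE, adjusted P = 0.193 in edgeR and 0.0466 in DESeq2). Acta2, of the same list, had 0.53 ± 0.56 (adjusted P = 0.677 in edgeR), and its groups overlapped. Of 5 pancreatic acinar markers, 4 (Prss2, Cpa1, Pnlip and Amy2a5) had no count in any mouse, and Cela1 was at 1.40 ± 0.28 (adjusted P = 0.0851). The part of these markers in the Serpina differences was not tested.

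Total counts were between 15253218 and 18025481 per mouse, so depth limits the precision of Serpina3c, and of the other members the spread between mice does. The factors that scaled library sizes ranged from 0.992 to 1.15 in WT and from 0.902 to 1.01 in MøFoxO1-KO mice. Foxo1 itself, which hepatocytes also express, had 394, 458, 302 and 458 normalized counts in WT22 to WT25 and 429, 302, 415 and 289 in KO26 to KO29. The groups overlapped (log2 fold change -0.17 ± 0.18, adjusted P = 0.686), so whole-liver counts do not check the myeloid deletion.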

How the data were processed

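Liver RNA of 4 MøFoxO1-KO and 4 WT mice was sequenced after poly-A selection. Mice had started the diet at 6 weeks of age and were fasted for 16 h. Per the labels, reads were aligned to mm10 with STAR and counted with featureCounts (versions not given in the sources used here), and the authors deposited raw counts per gene without normalization. Whether the strand was used and how reads matching several genes were treated are not given in the sources used here. Each of the 8 columns is 1 mouse, with no pooling.

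Symbols were taken from GENCODE M21 (46005 of 46517 genes). Genes were filtered with filterByExpr (minimum count 10, minimum total 15), which left 13278, and 9 of the 10 members were among them. After TMM scaling, genotype was the only term of a quasi-likelihood model fitted with edgeR 4.0.16 (R 4.3.3), and the Benjamini-Hochberg adjustment ran over all genes tested. The code was tested on simulated data. Normalized counts are counts scaled to the mean effective library size. SE of a log2 fold change was its size divided by the square root of F. Single values were compared by exact two-sided permutation tests (scipy), which with 4 against 4 mice give no P below 0.0286. P values measure the spread between these mice.

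Total counts of 15253218 to 18025481 limit precision only for genes with few counts. Alternatives were DESeq2 1.42.0, limma 3.58.1 (voom), sva 3.50.0, other scaling, filters and limits, the summed Serpina1 copies, and leaving out each mouse. Sequences are from GENCODE M21 and RefSeq, and identities and motif matches were computed from them. The members and gene lists were chosen with earlier results of these data known. Named from each list were genes at an adjusted P under 0.05 or, where there were none, the 2 with the smallest P. All 10 members were named, with the 3 most alike genes outside clade A for the 3 members with the largest log2 fold change.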

Additional observations from a re-analysis of the deposited data

Results flagged for a closer look

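In 2 of the 20 groups of 4 mice examined (10 members in each genotype), 1 mouse lay far from the others of its group by Dixon's criterion at the 95% level, which chance alone meets in about 1 of 20 groups. The first was Serpina1e in WT24, with 14961 normalized counts against 2528 to 3995 in the other WT mice, a gap of 0.882 of the range of the group. Without that mouse the log2 fold change of Serpina1e was 4.50 in place of 3.53. WT24 was not the highest WT mouse in the other Serpina1 copies. The second was Serpina3n in WT23, with 10521 normalized counts against 4832 to 5791, a gap of 0.831 of the range, just past the critical value of 0.829. Without that mouse the log2 fold change of Serpina3n was 0.53 in place of 0.21. The cause of either value was not tested.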

How the results depend on the processing

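All 148 refits of single members under 17 alternatives kept a log2 fold change above 0. At an adjusted P under 0.05 alone, where edgeR called 1 member, DESeq2 called 7, the unfiltered fit 4, upper-quartile scaling 2 and the robust fit 2, while a fit with 1 surrogate variable and one with the Serpina1 copies summed called 0. Leaving out single mice gave 0 to 3. DESeq2 called 2.25% of all its tested genes higher at that limit. For the other alternatives, here and below, no share over all genes is given. Their counts therefore do not show whether a fit called more genes in general. At both limits, where edgeR called 0, DESeq2 called 3, upper-quartile scaling 2, the unfiltered fit 2, limma-voom 1 and the robust fit 1, a limit of 1 on the absolute log2 fold change gave 1, an adjusted P under 0.1 gave 2, and leaving out single mice gave 0 to 3, the 3 without KO28. The median log2 fold change of the members, 0.90, was 1.18 without the filter, which adds Serpina3c, and 0.78 to 1.02 when single mice were left out. With the copies summed, groups did not overlap in 3 of the 5 remaining features, since fewer features were counted, and otherwise in 7 or 8 of the members. That count was not recomputed for other tests, which leave the values as they are. The summed ratios stayed between 0.98 and 1.21 for Serpina1 and between 1.24 and 1.51 for Serpina3 on the log2 scale.

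Among other clade A serpins DESeq2 and the unfiltered fit called 2 each in place of 1, and leaving out single mice gave 0 to 1 (0 without WT22, WT24, WT25, KO26, KO27 or KO29). The 2 called by DESeq2 were higher, against 2.25% of all its tested genes. In the lists with no call in edgeR, DESeq2 called 2 other serpins, 2 proteases, 1 transcription factor gene, 1 acute-phase gene and 1 secretory gene, the unfiltered fit 1 other serpin and 1 transcription factor gene, and the surrogate variable 1 protease, and leaving out KO28 gave 1 acute-phase gene. Depth limits Serpina3c alone. No paired analysis was possible because the WT and MøFoxO1-KO mice share no replicate number.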
